A study of Homo sapiens with 9 samples.

Results

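The core spliceosome protein genes were taken as the protein coding genes whose symbols began with SNRP, SF3A, SF3B or PRPF, together with those named LSM followed by a number. The rule found 47 genes of the 51274 listed, all 47 in both deposited tables, and used no measured value. They were arranged in 8 families by the known role of the protein. The small class held 21 genes, which were the 8 Sm ring genes and 13 LSM genes, and the large class held 22 genes, which were 3 SF3A, 6 SF3B and 13 PRPF genes. SNRPA, SNRPA1, SNRPB2 and SNRPC, which encode snRNP proteins outside the Sm ring, were kept apart as a class of 4.

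The spliceosome removes introns from pre-mRNA and is built from small nuclear ribonucleoproteins (snRNPs), each of which is a small nuclear RNA with its proteins. Sm proteins close a ring around most of these RNAs in the cytoplasm with the help of the SMN complex, whereas the related LSm proteins form a ring on U6 RNA in the nucleus and another that takes part in mRNA decay in the cytoplasm. SF3A and SF3B belong to the U2 snRNP, which recognises the branch point, and most PRPF proteins belong to the U4/U6.U5 tri-snRNP or help the complex through its later steps. The messages of all these proteins are ordinary polyadenylated messages, and poly(A) tails are coated mainly by PABPN in the nucleus and by PABPC in the cytoplasm. PABPN and PABPC, here PABPN1 and PABPC1, are distinct poly(A) binding proteins. PABPN is mainly nuclear and PABPC mainly cytoplasmic, and by the study both shuttle between the compartments.

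Wildtype HEK293T cells, a long-established line of embryonic kidney origin, were crosslinked with formaldehyde in all groups, and RNA immunoprecipitation (RIP) was carried out with an antibody against PABPN or PABPC. There were 3 biological replicates each of PABPN RIP, PABPC RIP and input, which is the total lysate without immunoprecipitation, and total RNA depleted of ribosomal RNA was sequenced. By the study's methods the same cell extract was divided between the RIPs, and both RIPs were set against the same 3 input libraries, so the 2 comparisons are not independent. No mock RIP was analysed here, and all values come from 1 cell line.

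Values per library were not analysed here. Each gene has, in the authors' deposited table for each RIP, a log2 fold change of RIP over input with its standard error (SE, n = 3 and 3) and an adjusted p from DESeq2. The means of the RIP and input groups, in counts divided by size factors and called normalised counts here, were worked out from the deposited mean and fold change. Reads in introns and exons were counted together, so a value covers spliced and unspliced RNA. A fold change is relative to the other RNAs of the library, and in a lysate of many cells, a message found in more cells and a message with more copies per cell cannot be told apart. An estimated 36.5 to 52.2 M reads per library were counted to genes, which is not the number of reads sequenced. Of the markers known in HEK293T cells, VIM, KRT18, LIN28B, PAX2, NEFL and NEFM had mean normalised counts between 265 and 56817 in the PABPN table, whereas PTPRC, ALB, HBA1 and MYH7 had 8.64 or fewer and COL1A1 had 455. A gene was called enriched above a log2 fold change of 0.5 and depleted below -0.5, with an adjusted p of at most 0.01 and a mean over both groups above 50.

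Most Sm and LSm genes have short coding sequences, and some SF3B genes have equally short ones. The coding sequences of SNRPG, the Sm G protein, and SF3B5, the smallest SF3B subunit, are shown because they come from opposite classes but are of like length and, as described further on, were both enriched with PABPC. They are written 5′ to 3′ from hg38 with the GENCODE release 44 transcript, and capitals mark the start and stop codons. SNRPG lies at chr2:70281362-70293740 on the minus strand and has 231 nt of coding sequence over 4 exons. SF3B5 lies at chr6:144094884-144095573 on the minus strand, and its 261 nt of coding sequence sit in a single exon with no intron.
SNRPG: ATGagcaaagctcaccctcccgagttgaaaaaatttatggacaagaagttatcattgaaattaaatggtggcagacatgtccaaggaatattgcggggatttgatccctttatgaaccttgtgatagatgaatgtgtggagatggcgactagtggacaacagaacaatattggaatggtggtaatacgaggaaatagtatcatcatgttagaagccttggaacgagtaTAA
SF3B5: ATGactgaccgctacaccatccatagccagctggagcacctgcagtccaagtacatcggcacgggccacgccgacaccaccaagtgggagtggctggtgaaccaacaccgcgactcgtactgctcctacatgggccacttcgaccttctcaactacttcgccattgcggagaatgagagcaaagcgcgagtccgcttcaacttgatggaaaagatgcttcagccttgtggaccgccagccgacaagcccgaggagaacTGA
The median coding sequence of the tested small class was 358.5 nt, against 1825.5 nt for the large class. The median gene had 4 exons in the small class and 15.5 in the large class.

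Stretches of 30 nt at or next to the transcript end, near the poly(A) tail, are shown. They come from the 3 small-class messages with the highest PABPC values (LSM4, LSM2 and SNRPD2) and the lowest of each class (LSM12 and PRPF40B). PRPF8, the longest coding sequence among the members, is shown as well. Capitals mark the poly(A) signal hexamer AATAAA, searched on the transcript strand only. The LSM4 stretch lies at chr19:18306237-18306266 on the minus strand, just short of the annotated end at 18306236. LSM2 ends at chr6:31797396-31797425, SNRPD2 at chr19:45687460-45687489, LSM12 at chr17:44034328-44034357 and PRPF8 at chr17:1650629-1650658, all on the minus strand. PRPF40B ends at chr12:49644636-49644665 on the plus strand.
LSM4: gattggAATAAAaggtcccgtccgtgagga
LSM2: ccgcatcgggAATAAAatttatgatgcaaa
SNRPD2: gagaatAATAAAgctctgtgtttttttcta
LSM12: gctgagaagtaaactttcagatccacctgc
PRPF40B: tgttttttaaataacaatatttataacatg
PRPF8: aatataatAATAAAttttgtataaatagga
Within the last 50 nt of the canonical transcript, AATAAA was found in 28 of the 47 genes (59.6%), beside 65.1% of 18814 protein coding genes. ATTAAA, counted where AATAAA was absent, was found in 8 genes (17.0%, beside 14.4%), and neither hexamer in 11 (23.4%, beside 20.5%). The 10 tested members with neither hexamer were LSM5, LSM12, SNRPC, SF3B2, SF3B5, PRPF3, PRPF4, PRPF18, PRPF39 and PRPF40B. Their PABPC values spanned -2.05 to 2.19, wider than that of 35 members with a hexamer (-0.26 to 2.28). The annotated end need not be the end used in these cells.

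Of the 47 genes, 46 passed the filter on low values in both comparisons. The exception was SNRPN, an imprinted Sm ring gene, with mean normalised counts of 3.38 (PABPN comparison) and 3.37 (PABPC comparison). In GENCODE release 44, 84.5% of its exonic bases lie within other annotated genes, introns included, on either strand, SNURF and SNHG14 among them. The authors removed stretches shared by genes before counting. The deposited length of SNRPN, 3416 nt, was near its exonic 3408 nt in release 44. Whether that length is the space that was counted is not known. The tested members ranged from 418 normalised counts (LSM10) to 28226 (PRPF8) in the PABPN table. Per kb of the deposited length, input was highest for SF3B5 (4543 normalised counts per kb), SNRPB (4076) and PRPF8 (3496). It was lowest for LSM8 (107), whose deposited length of 17309 nt was the longest. The counts hold intronic reads, whereas this length was taken as exonic and may differ from the space counted. Genes with many intronic reads can therefore stand too high in this order.

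In the PABPN RIP, 20 of the 46 members were depleted and 3 were enriched (adjusted p of at most 0.01, DESeq2). Of all 15526 genes tested, 14.6% were depleted and 17.5% were enriched, and of the 12799 protein coding genes, 16.5% and 15.1%. With a cut-off of 1 in place of 0.5, 10 members were depleted and 0 were enriched. The median log2 fold change of the members was -0.43, against -0.087 for protein coding genes. In the PABPC RIP, 30 of the 46 members were enriched and 3 were depleted, or 6 depleted when fold changes were centred on the median of all genes. Among all 14843 genes tested there, 38.4% were enriched and 32.4% were depleted, and among the 12582 protein coding genes, 41.2% and 27.9%. The median of the members was 0.99, against 0.25 for protein coding genes. Genes are not replicates of a condition, so these shares were set side by side without a test of the list.

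**Figure D1:**
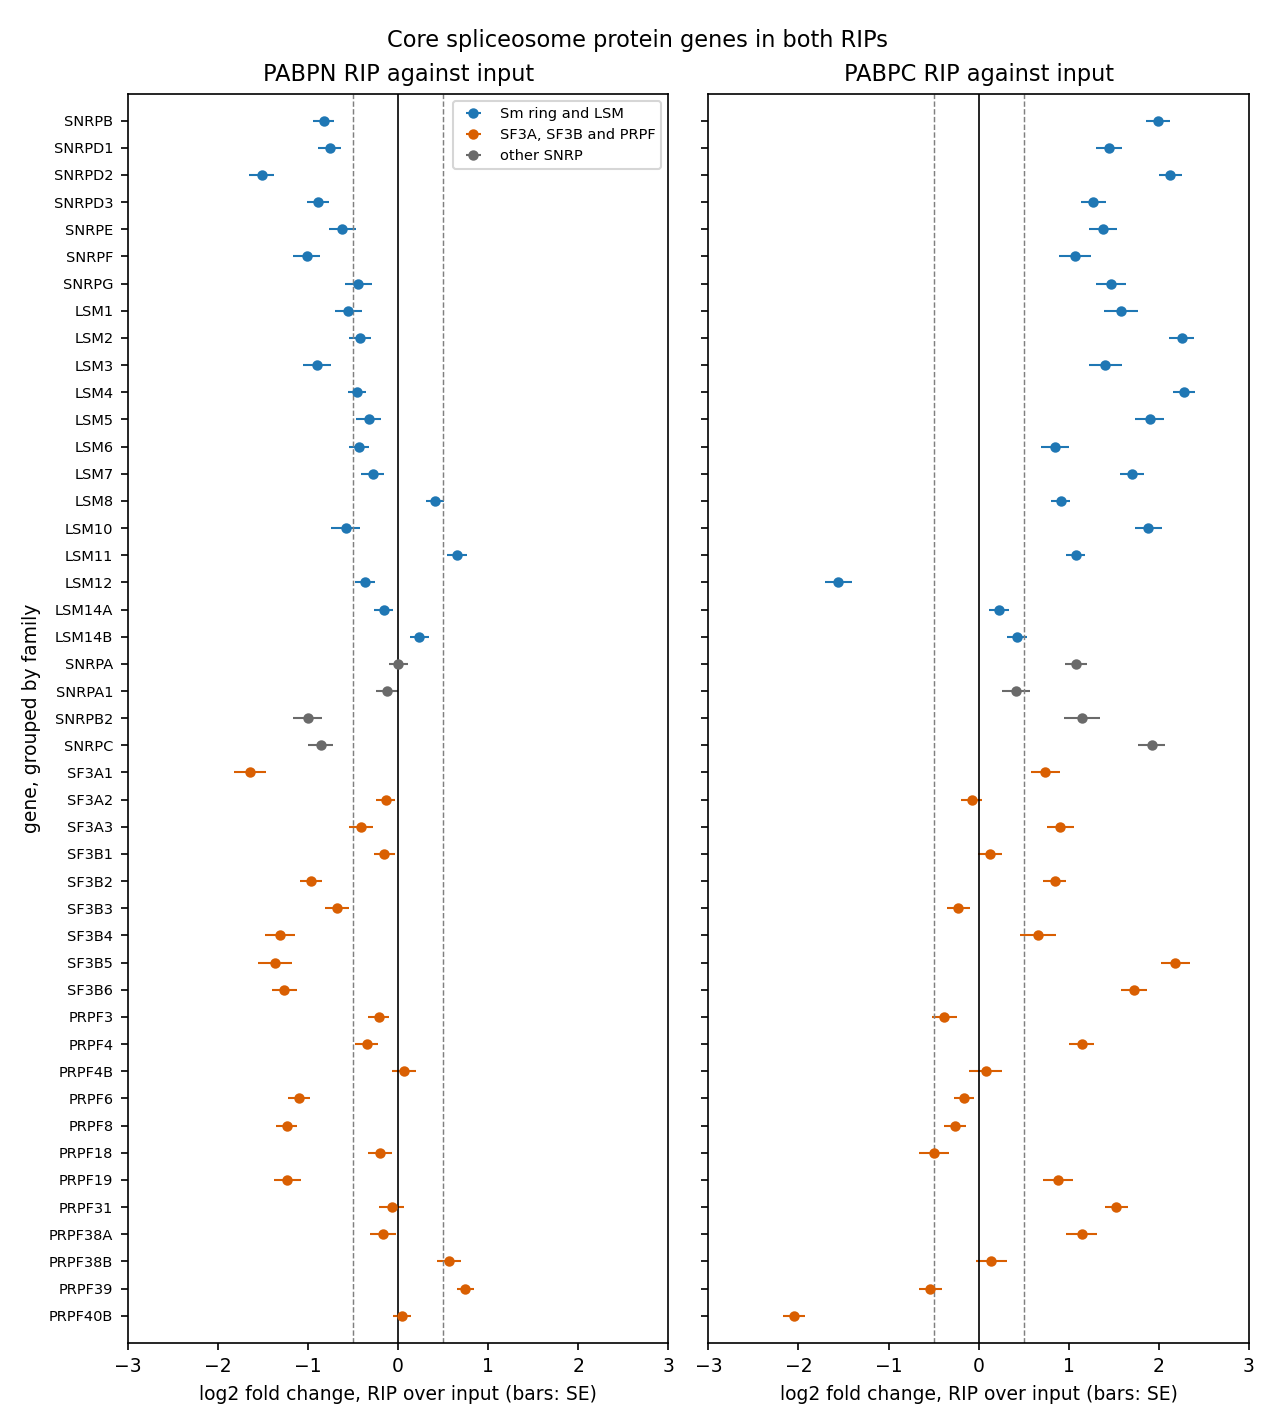
Log2 fold change of RIP over input for 45 tested members, PABPN on the left and PABPC on the right, with bars for the SE, dashed lines at -0.5 and 0.5, and colours for the small class, the large class and the other SNRP genes. The 7 Sm ring genes and LSM1 to LSM8 all lie to the right of 0.5 with PABPC, whereas the SF3A, SF3B and PRPF genes spread from -2.05 to 2.19.

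The Sm ring genes were called almost alike. In the PABPN RIP 6 of the 7 tested were depleted (85.7%, beside 16.5% of protein coding genes), with a median of -0.83. In the PABPC RIP all 7 were enriched (beside 41.2%), with a median of 1.45. SNRPD2, which encodes the D2 protein of the ring, had a mean of 5227 normalised counts in input and 1829 in the PABPN RIP, and of 4472 in input and 19575 in the PABPC RIP. Its log2 fold change was -1.51 (SE 0.138, adjusted p = 3.34e-26, DESeq2) with PABPN and 2.13 (SE 0.124, adjusted p = 2.94e-64) with PABPC. SNRPD2 thus had the lowest PABPN value of the small class and the highest PABPC value of the Sm ring.

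SNRPB, the source of the B and B' proteins, went from 5209 in input to 2939 normalised counts with PABPN (log2 fold change -0.83, SE 0.117, adjusted p = 2.40e-11) and from 4455 to 17764 with PABPC (2.0, SE 0.133, adjusted p = 8.70e-50). SNRPF, the F protein, fell from 2815 to 1391 with PABPN (-1.02, SE 0.155, adjusted p = 6.37e-10) and had the lowest PABPC value of the ring, 1.07 (SE 0.174). SNRPD1, SNRPD3 and SNRPE, the D1, D3 and E proteins, were depleted from PABPN at -0.76, -0.89 and -0.62 and enriched with PABPC at 1.45, 1.27 and 1.38. SNRPG, whose coding sequence is printed above, was enriched with PABPC at 1.47 (SE 0.171, adjusted p = 3.34e-17). With PABPN its log2 fold change of -0.44 (SE 0.149, adjusted p = 0.00955) lay inside the cut-off.

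All 8 genes of the LSm rings, LSM1 to LSM8, were enriched with PABPC (beside 41.2% of protein coding genes), with a median of 1.64. Depleted from PABPN were 2 of them, LSM1 and LSM3 (25%, beside 16.5%). LSM4 had the highest PABPC value among the members. It went from 3153 normalised counts in input to 15307 in the PABPC RIP (2.28, SE 0.122, adjusted p = 2.52e-76, DESeq2) and from 3687 to 2680 with PABPN (-0.46, SE 0.100). LSM2 went from 756 to 3618 with PABPC (2.26, SE 0.139, adjusted p = 2.89e-58) and had -0.42 (SE 0.121) with PABPN. LSM3 fell from 1771 to 947 with PABPN (-0.90, SE 0.153, adjusted p = 3.33e-08) and was enriched with PABPC at 1.41. LSM5, LSM6 and LSM7, the remaining subunits shared by both rings, were enriched with PABPC at 1.90, 0.85 and 1.70 and had -0.33, -0.43 and -0.28 with PABPN, none of them past the cut-off.

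LSM1 and LSM8 are the subunits that set the rings apart, LSM1 in the cytoplasmic ring of mRNA decay and LSM8 in the nuclear ring on U6 RNA. LSM1 went from 750 to 512 normalised counts with PABPN (-0.55, SE 0.154, adjusted p = 0.00137) and from 642 to 1921 with PABPC (1.58, SE 0.189). LSM8 went from 1846 to 2454 with PABPN (0.41, SE 0.0995, adjusted p = 1.77e-04, inside the cut-off) and from 1579 to 2967 with PABPC (0.91, SE 0.102). LSM1 minus LSM8 was -0.96 with PABPN (95% interval -1.32 to -0.60) and 0.67 with PABPC (0.25 to 1.09), each interval from the SEs of both genes taken as independent.

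LSM10 and LSM11 take the place of SNRPD1 and SNRPD2 in the U7 snRNP, which processes histone pre-mRNA. Both were enriched with PABPC, at 1.89 (SE 0.152) and 1.08 (SE 0.104). With PABPN, LSM10 fell from 502 to 335 normalised counts (-0.58, SE 0.164, adjusted p = 0.00151), whereas LSM11 rose from 1434 to 2256 (0.65, SE 0.112, adjusted p = 4.92e-08). LSM11 was the one member enriched with both proteins, and LSM10 minus LSM11 was -1.24 with PABPN (95% interval -1.62 to -0.85).

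LSM12, LSM14A and LSM14B encode longer proteins with an LSm domain that are not ring subunits, and LSM14A is known from P bodies. None of the 3 was called with PABPN, where the values were -0.37, -0.16 and 0.24. LSM12 had 2555 normalised counts in input and 868 in the PABPC RIP. Its log2 fold change of -1.56 (SE 0.148, adjusted p = 3.56e-25, DESeq2) was the one depletion from PABPC in the small class. LSM14A went from 5949 to 6953 with PABPC (0.22, SE 0.112, adjusted p = 0.0677) and LSM14B from 1988 to 2674 (0.43, SE 0.113, adjusted p = 3.28e-04), neither past the cut-off. LSM14A minus LSM14B was -0.20 with PABPC (95% interval -0.51 to 0.11) and -0.40 with PABPN (-0.68 to -0.11).

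The other SNRP genes followed the Sm ring in part. SNRPC, of the U1 snRNP, was enriched with PABPC at 1.92 (SE 0.152) and depleted from PABPN at -0.86 (SE 0.141). SNRPB2, of the U2 snRNP, likewise had 1.15 (SE 0.196) with PABPC and -1.0 (SE 0.160) with PABPN, both called. SNRPA, the U1 protein A, was enriched with PABPC at 1.08 (SE 0.123) and had 3050 normalised counts in input beside 3049 in the PABPN RIP. SNRPA1, the U2 protein A', had -0.12 with PABPN and 0.41 with PABPC, and was not called in either.

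**Figure D2:**
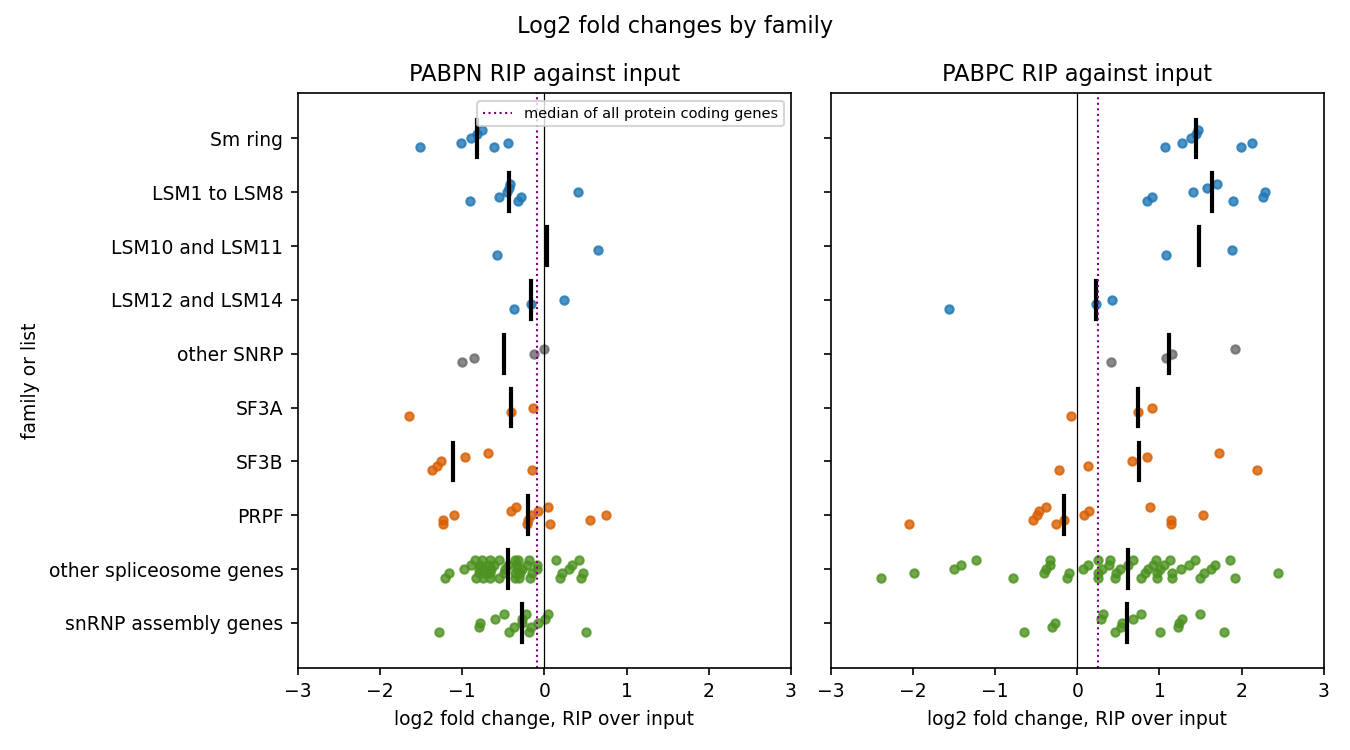
Log2 fold change of RIP over input by family for the 46 tested members and for 2 further gene lists, with 1 point per gene, a black bar at the median of each row and a dotted line at the median of all protein coding genes. The medians with PABPC run from 1.45 for the Sm ring and 1.64 for LSM1 to LSM8 down to -0.16 for PRPF, and with PABPN the SF3B median of -1.11 is the lowest.

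SF3A1, SF3A2 and SF3A3 encode the subunits of a single trimer but their messages differed. SF3A1 had the lowest PABPN value of all members, with 7295 normalised counts in input and 2333 in the RIP (-1.64, SE 0.176, adjusted p = 2.21e-19, DESeq2). With PABPC it went from 6243 to 10449 (0.74, SE 0.163, adjusted p = 1.34e-05). SF3A3 was enriched with PABPC at 0.91 (SE 0.149) and had -0.41 (SE 0.136) with PABPN, inside the cut-off. SF3A2 was not called in either, at -0.14 and -0.077, and its RIP and input means differed 1.10-fold with PABPN and 1.06-fold with PABPC. SF3A1 minus SF3A2 was -1.51 with PABPN (95% interval -1.91 to -1.11) and 0.82 with PABPC (0.42 to 1.22). SF3A1 minus SF3A3 was -1.23 with PABPN (-1.67 to -0.80) and -0.16 with PABPC (-0.60 to 0.27).

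Of the 6 SF3B genes, 5 were depleted from PABPN (83.3%, beside 16.5% of protein coding genes), with a median of -1.11. With PABPC 4 were enriched (66.7%, beside 41.2%). SF3B4, SF3B5 and SF3B6, which have the shortest coding sequences of the family, were depleted from PABPN to a similar extent. SF3B4, a subunit with RNA recognition motifs, fell from 1494 to 604 normalised counts (-1.31, SE 0.165, adjusted p = 3.85e-14). SF3B5 fell from 3135 to 1216 (-1.37, SE 0.187, adjusted p = 4.14e-12). SF3B6, which lies close to the branch point adenosine, fell from 2588 to 1078 (-1.26, SE 0.136, adjusted p = 5.67e-19). With PABPC the same genes spread out. SF3B5 went from 2682 to 12210 (2.19, SE 0.159, adjusted p = 3.80e-42), SF3B6 from 2214 to 7332 (1.73, SE 0.142, adjusted p = 6.40e-33) and SF3B4 from 1279 to 2022 (0.66, SE 0.196, adjusted p = 0.00155), a call that was lost when fold changes were centred on the median of all genes (0.52, adjusted p = 0.0103).

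Among the SF3B genes with long coding sequences, SF3B1, the branch point subunit that is mutated in some blood cancers, was not called in either RIP. Its means were 15674 in input and 14072 with PABPN (-0.16, SE 0.116), and 13409 in input and 14650 with PABPC (0.13, SE 0.133). SF3B2 was enriched with PABPC at 0.84 (SE 0.123) and depleted from PABPN at -0.97 (SE 0.119). SF3B3 was depleted from PABPN at -0.68 (SE 0.133) and had -0.22 (SE 0.126) with PABPC, inside the cut-off.

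The PRPF genes went several ways, with 3 of 13 depleted from PABPN and 2 enriched, and 4 enriched with PABPC and 2 depleted. The 4 enriched with PABPC were 30.8% of the family, beside 41.2% of protein coding genes. The 3 depleted from PABPN were 23.1%, beside 16.5%. Enriched with PABPN were 15.4%, near the 15.1% of protein coding genes, and depleted from PABPC were 15.4%, beside 27.9%. PRPF8, PRPF6 and PRPF19 were those depleted from PABPN. PRPF8, the U5 protein at the catalytic centre, fell from 39643 to 16809 normalised counts (-1.24, SE 0.117, adjusted p = 2.01e-24, DESeq2) and had -0.26 (SE 0.118, adjusted p = 0.0437) with PABPC, inside the cut-off. PRPF6, which bridges the snRNPs of the tri-snRNP, fell from 6522 to 3035 with PABPN (-1.10, SE 0.124) and had -0.16 (SE 0.111) with PABPC. PRPF19, the ubiquitin ligase of the complex named after it, fell from 5704 to 2434 with PABPN (-1.23, SE 0.149) and was enriched with PABPC at 0.88 (SE 0.163).

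PRPF3, PRPF4 and PRPF31 encode U4/U6 proteins. PRPF31 and PRPF4 were enriched with PABPC, PRPF31 from 2226 to 6424 normalised counts (1.53, SE 0.128, adjusted p = 4.07e-32) and PRPF4 from 3327 to 7347 (1.14, SE 0.141, adjusted p = 3.03e-15), whereas PRPF3 had -0.38 (SE 0.139). None of these 3 was called with PABPN, where the values were -0.073 for PRPF31, -0.35 for PRPF4 and -0.22 for PRPF3. PRPF18, of the second step of splicing, had -0.50 (SE 0.162, adjusted p = 0.00425) with PABPC, where its input mean of 1298 stood beside 921 in the RIP, and was just inside the cut-off.

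PRPF39 and PRPF40B, whose proteins associate with the U1 snRNP, were depleted from PABPC. PRPF40B had the lowest PABPC value of all members, with 3575 normalised counts in input and 861 in the RIP (-2.05, SE 0.123, adjusted p = 1.10e-61, DESeq2), and 4181 and 4306 with PABPN (0.043, SE 0.0984). PRPF39 had the highest PABPN value, from 3535 to 5937 (0.75, SE 0.0992, adjusted p = 7.82e-13), and fell from 3024 to 2087 with PABPC (-0.53, SE 0.127, adjusted p = 6.33e-05). PRPF39 was thereby the one member enriched with PABPN and depleted from PABPC. In GENCODE release 44, 53.3% of the exonic bases of PRPF40B lie within FAM186B or FMNL3, introns included, on either strand. The deposited length of PRPF40B, 9444 nt, equalled its exonic length in release 44. Whether the counted stretches cover the whole gene was not tested.

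Genes of like name were also compared, as 3 pairs with A and B forms or like names in both RIPs, which gave 6 differences, and LSM1 with LSM8, LSM10 with LSM11 and SF3A1 with SF3A2 and SF3A3 were added after their values were seen. PRPF38A, which joins the complex before its activation, and PRPF38B had intervals of the difference away from 0 in both RIPs. PRPF38A went from 3374 to 3005 normalised counts with PABPN (-0.17, SE 0.140) and from 2888 to 6377 with PABPC (1.14, SE 0.176, adjusted p = 2.92e-10). PRPF38B rose from 3267 to 4820 with PABPN (0.56, SE 0.133, adjusted p = 1.21e-04) and had 2796 and 3088 with PABPC (0.14, SE 0.170). PRPF38A minus PRPF38B was -0.73 with PABPN (95% interval -1.11 to -0.35) and 1.00 with PABPC (0.52 to 1.48). Of the exonic bases of PRPF38A, 92.2% lie within TUT4 in that annotation, counted in the same way. The deposited length of PRPF38A, 5617 nt, equalled its exonic length there. PRPF4B, a kinase that is no copy of PRPF4 despite its name, had 6080 and 6369 with PABPN (0.067, SE 0.134) and 5204 and 5501 with PABPC (0.080, SE 0.183), and PRPF4 minus PRPF4B was 1.06 with PABPC (0.61 to 1.52) and -0.42 with PABPN (-0.78 to -0.050).

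The question of small against large genes was then asked of the classes, whose medians lay close together with PABPN and apart with PABPC. With PABPN, 9 of 20 small genes were depleted and 1 was enriched (median -0.45, range -1.51 to 0.65), and 9 of 22 large genes were depleted and 2 were enriched (median -0.38, range -1.64 to 0.75). With PABPC, 17 of 20 small genes were enriched and 1 was depleted (median 1.43, range -1.56 to 2.28), and 10 of 22 large genes were enriched and 2 were depleted (median 0.14, range -2.05 to 2.19). Among protein coding genes, 16.5% were depleted and 15.1% enriched with PABPN, and 41.2% were enriched and 27.9% depleted with PABPC. The large-class share enriched with PABPC, 45.5%, was near the 41.2% of protein coding genes. The median over all genes was 0.14 with PABPC and -0.041 with PABPN, and relative to these the median of the large class stood at -0.0048 and -0.34. With classes split by exonic length in place of family, the medians with PABPN were -0.62 for small and -0.22 for large, so their closeness depended on the class definition, and that of the large class with PABPC was 0.43. The ranges of the classes overlapped in both comparisons, and no test was made between them. The members nearest to the cut-offs were LSM1 (-0.55) inside the depleted set and LSM4 (-0.46) outside it with PABPN, and PRPF38B (0.56) inside the enriched set and LSM8 (0.41) outside it. With PABPC they were SF3B4 (0.66) and LSM14B (0.43) on the enriched side and PRPF39 (-0.53) and PRPF18 (-0.50) on the depleted side.

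Coding sequence length varied together with class. Across the 46 members its Spearman correlation with the PABPC value was -0.70, against -0.53 over 12572 protein coding genes. Within the large class (n = 22) it was -0.54 and within the small class (n = 20) -0.16. Within the small class the deposited length gave -0.64 and intronic length -0.53. With PABPN the correlation with coding length was 0.21 over members and 0.061 over 12789 protein coding genes. Intronic length gave -0.60 over members and -0.76 over protein coding genes with PABPC. These are correlations across genes of the same libraries, given as a description, and coding length, exon number and intronic length vary together.

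Bands of coding length, with bounds at 500 and 1500 nt chosen after the values were seen, showed the same members beside other genes of their length. All 18 members of up to 500 nt were enriched with PABPC, beside 78.3% of 1015 protein coding genes of that length. They were 15 of the 20 small genes with SNRPC, SF3B5 and SF3B6, and 11 of the 18 (61.1%) were depleted from PABPN, beside 37.1% of 999 protein coding genes. Between those bounds, 7 of 13 members were enriched with PABPC (53.8%, beside 57.8%). Of the 15 members over 1500 nt, 5 were enriched with PABPC (33.3%, beside 19.7%) and 2 were depleted (13.3%, beside 41.3%). In the same band 6 of 15 were depleted from PABPN (40.0%, beside 12.6%), which were SF3A1, SF3B2, SF3B3, PRPF6, PRPF8 and PRPF19.

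**Figure D3:**
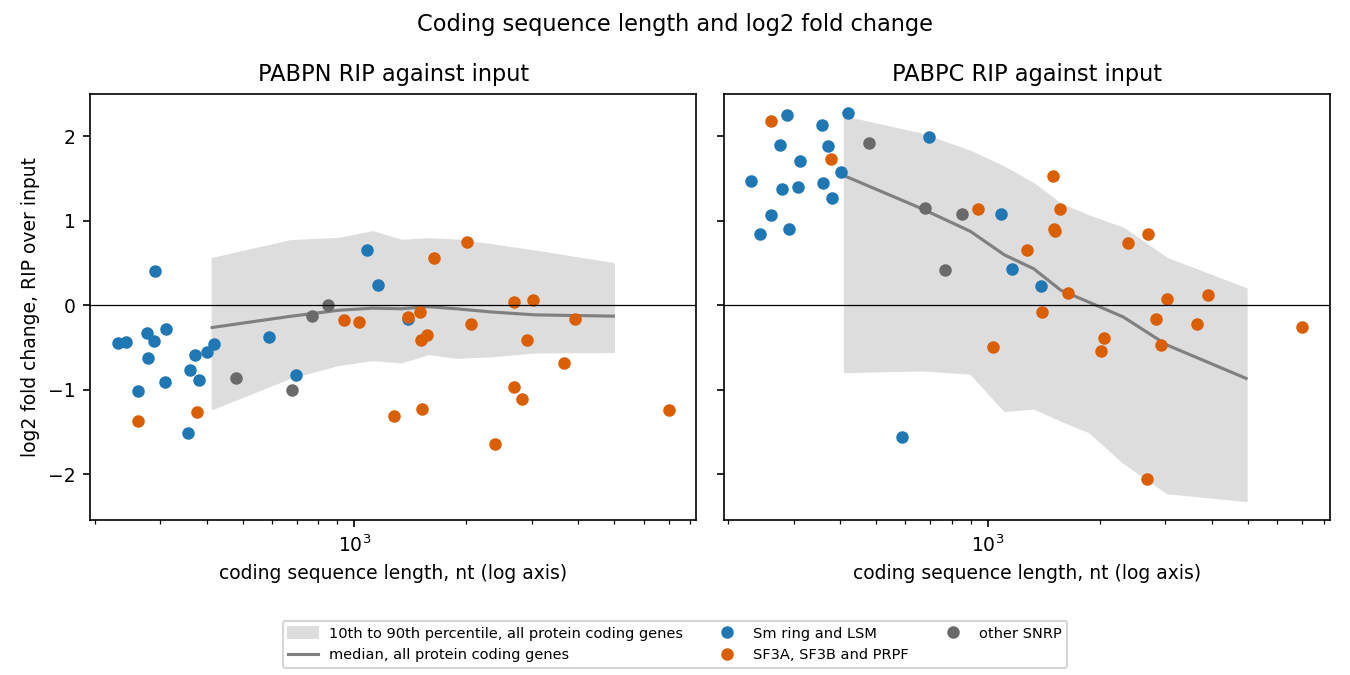
Log2 fold change of RIP over input against coding sequence length on a log axis for the 46 tested members, PABPN on the left and PABPC on the right. The grey line and band are the median and the 10th to 90th percentile of protein coding genes in 10 bins of coding length. With PABPC both the members and the grey line fall with length, from 2.28 for LSM4 at 420 nt to -0.26 for PRPF8 at 7008 nt. Over 1500 nt most members lie above the line (median 0.080, against -0.30 for protein coding genes), and LSM12 and PRPF40B lie far under it at -1.56 and -2.05.

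The RIPs were then compared with each other, as the log2 fold change with PABPN minus that with PABPC. The difference was called with a two-sided normal test adjusted over 14581 genes by the Benjamini-Hochberg method, at an adjusted p of at most 0.01 and a difference beyond 0.5. Of the 46 members, 30 were higher with PABPC and 3 with PABPN, beside 33.4% and 36.1% of all genes tested and 37.8% and 30.6% of protein coding genes. The median difference was -2.11 in the small class, where 15 of 20 were higher with PABPC, and -0.96 in the large class, where 12 of 22 were.

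SNRPD2 had the lowest difference, -3.64 (95% interval -4.01 to -3.28, adjusted p = 1.03e-83 by the normal test). SF3B5 came next at -3.55 (-4.03 to -3.07, adjusted p = 2.40e-46). The lowest of the small class after SNRPD2 were SNRPB at -2.82 (-3.17 to -2.47) and LSM4 at -2.74 (-3.05 to -2.43), and those of the large class after SF3B5 were SF3B6 at -2.99 (-3.38 to -2.60) and SF3A1 at -2.39 (-2.86 to -1.92). The neighbours SNRPD2 and SF3B5 lay within each other's intervals. The 3 members higher with PABPN were PRPF40B at 2.10 (1.79 to 2.40, adjusted p = 1.81e-39), PRPF39 at 1.28 (0.97 to 1.60, adjusted p = 6.61e-15) and LSM12 at 1.19 (0.82 to 1.55, adjusted p = 3.46e-10). PRPF38B at 0.42 (-0.0052 to 0.84) was not called. LSM8 at -0.50 (-0.78 to -0.22) lay just short of the cut-off, LSM14B at -0.19 (-0.49 to 0.11) and LSM14A at -0.39 (-0.68 to -0.088) were not called, and SNRPA1 at -0.54 missed the limit with an adjusted p of 0.0102. The called member nearest to the cut-off was PRPF6 at -0.94.

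**Figure D4:**
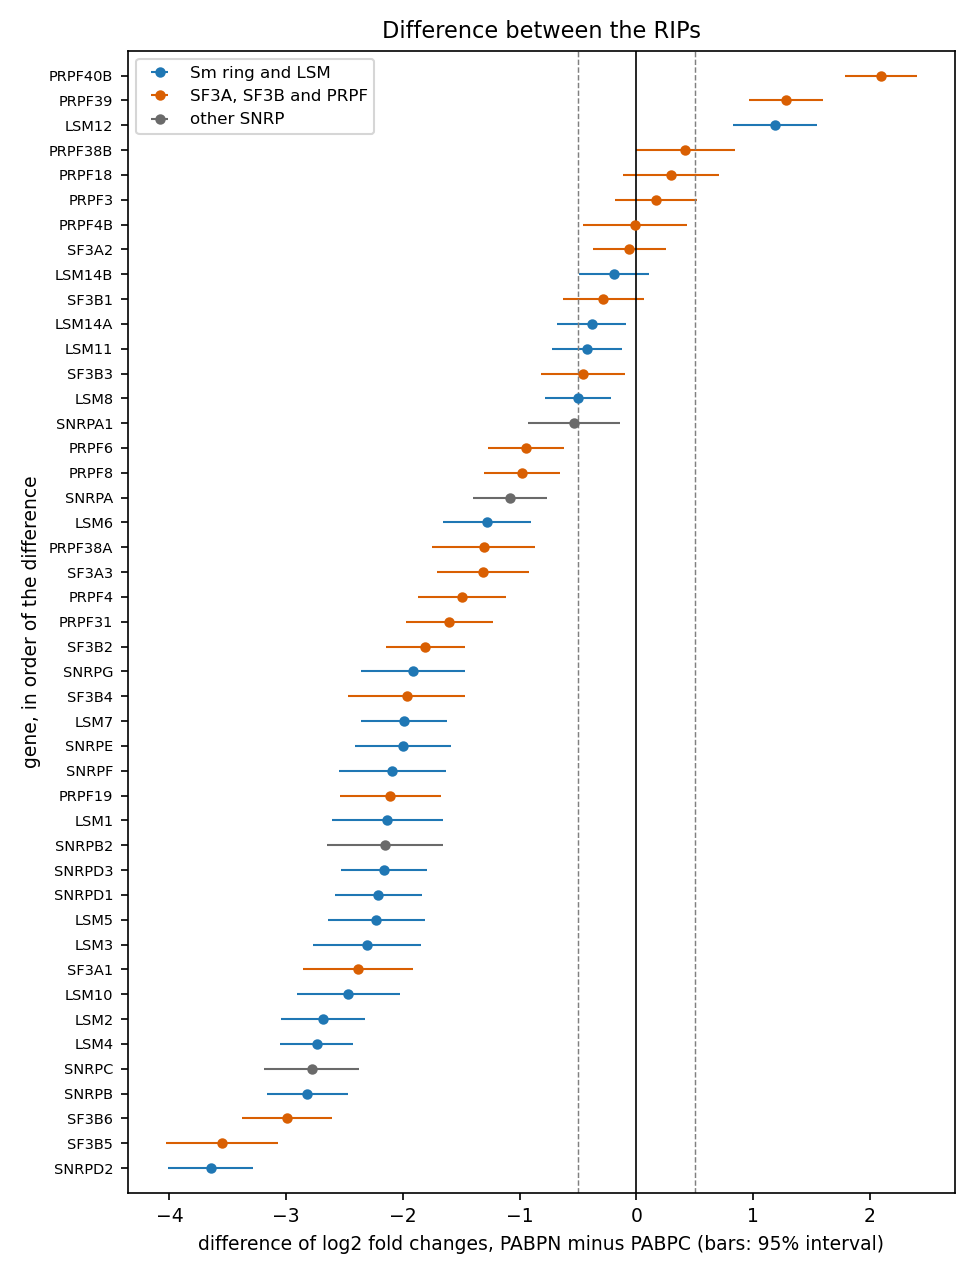
Difference of the log2 fold changes, PABPN minus PABPC, for 45 tested members in order of the difference, with bars for the 95% interval and dashed lines at -0.5 and 0.5. The values run from -3.64 for SNRPD2 to 2.10 for PRPF40B, and PRPF39 and LSM12 are the other members whose interval lies wholly above 0.5.

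A further 47 genes of spliceosome proteins with other names were read from the same tables. With PABPN 21 were depleted (44.7%, beside 16.5% of protein coding genes) and 0 were enriched (beside 15.1%) by the DESeq2 calls, with a median of -0.44. At an unadjusted p under 0.05, 5 were above 0 and 32 were below 0. The share of all genes at that limit was not worked out, so these counts have no background. With PABPC 25 were enriched (53.2%, beside 41.2%) and 6 were depleted (12.8%, beside 27.9%), with a median of 0.61. The highest PABPC values of this list were those of SNRNP25 of the minor spliceosome (2.45, SE 0.143), SNU13, which binds U4 RNA (1.92, SE 0.165), and BUD31 (1.86, SE 0.127). PHF5A, a further SF3B subunit, had 1.63 (SE 0.186) with PABPC and -0.97 (SE 0.174) with PABPN, both called and both within the range of the SF3B genes. EFTUD2 and SNRNP200, which encode U5 partners of PRPF8, were depleted from PABPN at -1.20 (SE 0.130) and -0.55 (SE 0.127) and had -0.12 and -0.096 with PABPC, neither called. Other U5 proteins of the list differed from these, since SNRNP40 was depleted from PABPN (-0.80) and enriched with PABPC (0.61), and DDX23, TXNL4A and CD2BP2 were enriched with PABPC (0.97, 1.43 and 1.68) and not called with PABPN (-0.18, -0.18 and 0.34). Depletion from PABPC was largest for U2AF1 (-2.39, SE 0.272), CWC27 (-1.98, SE 0.127) and CWC22 (-1.50, SE 0.135). U2AF1 has a near identical copy in hg38 and a mean of 84.9 normalised counts in the PABPC table, so its value is uncertain.

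Genes for assembly of the snRNPs were also read. Of 16 such genes, 4 were depleted from PABPN (25%, beside 16.5% of protein coding genes) and 0 were enriched by DESeq2 (median -0.27). At an unadjusted p under 0.05, 1 was above 0 and 8 were below 0, again without a share of all genes to set them against. With PABPC 10 were enriched (62.5%, beside 41.2%) and 1 was depleted (6.25%, beside 27.9%), with a median of 0.61. STRAP, of the SMN complex, was enriched with PABPC at 1.28 (SE 0.149) and depleted from PABPN at -1.28 (SE 0.129). PRMT5 and WDR77, which methylate Sm proteins, were enriched with PABPC at 1.22 (SE 0.152) and 1.49 (SE 0.211), and PRMT5 was depleted from PABPN at -0.78 (SE 0.151). GEMIN6 was enriched with PABPC at 1.78 (SE 0.204), and TGS1, which forms the cap of snRNAs, was the one gene of the list depleted from PABPC, at -0.65 (SE 0.160). SMN1 and SMN2 are near identical, so how their reads were divided is uncertain. Both are in these counts, and SMN1 is one of the genes enriched with PABPC.

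Processed copies could draw reads from the short members. The tables listed 53 pseudogenes named after 14 members, 17 of them after SNRPG and 11 after SNRPC, and 0 of the 53 passed the filter on low values in either comparison. Reads that match a member and a copy equally may be counted at neither, so these low counts cannot show whether a member lost reads. Shared annotation was a further limit. In GENCODE release 44 all exonic bases of LSM7 (100%) and 98.7% of those of SNRPD3 lie within other genes, introns included, on either strand. The deposited lengths of LSM7 (1686 nt) and SNRPD3 (3914 nt) equalled their exonic lengths in release 44. Whether the deposited length is the space that was counted is not known. For PRPF18 the deposited length was 1844 nt, against an exonic 12262 nt in release 44. The effect of these overlaps on the values was not tested.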

How the data were processed

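Total RNA from 9 libraries was sequenced as single-end reads of 75 nt. The authors aligned reads to hg38 with STAR, counted them with featureCounts 2.0.2 (minimum overlap 20) on an annotation derived from GENCODE release 34, with stretches shared by genes removed and introns included, and compared 3 RIP with 3 input libraries in DESeq2. The design formula was not given in the sources used here. In each deposited table, baseMean is a signal, the average of size-factor scaled counts over 6 libraries. The deposited fold change is on the log2 scale, and its standard error stands beside it. A Wald statistic was deposited as a score, and of the deposited p-values the Benjamini-Hochberg adjusted one was used. These are the authors' own comparisons, the tables carry no column of a single library, and no sample could be left out or refitted. The labels only number the replicates. The study calls them independent biological ones, and it divided the same extract between the RIPs.

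Calls used the cut-offs of the study's methods (log2 fold change beyond 0.5, adjusted p of at most 0.01, baseMean above 50). The difference between the RIPs took the sum of both squared standard errors as its variance, which counts the shared input in both terms. The number of reads counted to genes was worked out with size factors from the lowest baseMean values, which are whole reads divided by size factors. The precision of a gene is its standard error, with a median over genes of 0.137 for PABPN and 0.141 for PABPC. Coordinates, coding lengths, exons and sequences came from GENCODE release 44 and hg38. One member stands in the counts and medians but is not reported here by itself. The others were named. Fuller values were given for most of the 3 highest and 3 lowest of each class in each comparison. The same holds for most genes of like-named pairs, for SF3B4 to SF3B6 and for most members nearest to the cut-offs. Members, lists and tests were chosen with earlier results of these data known. Alternatives were other cut-offs, a test against a change of 0.5, other minimums of baseMean, centring on the median of all genes, other class definitions, means for medians and the shared input taken out. Python 3.11.15, numpy 2.4.6, pandas 2.3.3, scipy 1.17.1 and matplotlib 3.10.9 were used.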

Additional observations from a re-analysis of the deposited data

Results flagged for a closer look

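A tested difference between the RIPs was found for 33 members, given here as the log2 fold change with PABPN minus that with PABPC, with calls from the two-sided normal test adjusted over 14581 genes. For 30 of them the value was higher with PABPC. In the Sm ring these were SNRPD2 (-3.64), SNRPB (-2.82), SNRPD1 (-2.21), SNRPD3 (-2.16), SNRPF (-2.09), SNRPE (-2.0) and SNRPG (-1.91). All 7 tested Sm ring genes are among them.

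Among the LSM genes they were LSM4 (-2.74), LSM2 (-2.68), LSM10 (-2.47), LSM3 (-2.31), LSM5 (-2.23), LSM1 (-2.13), LSM7 (-1.99) and LSM6 (-1.28). Of the other SNRP genes they were SNRPC (-2.78), SNRPB2 (-2.15) and SNRPA (-1.08). LSM8, LSM11, LSM14A, LSM14B and SNRPA1 are absent from this set.

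Among the SF3A and SF3B genes they were SF3B5 (-3.55), SF3B6 (-2.99), SF3A1 (-2.39), SF3B4 (-1.97), SF3B2 (-1.81) and SF3A3 (-1.32). Among the PRPF genes they were PRPF19 (-2.11), PRPF31 (-1.60), PRPF4 (-1.49), PRPF38A (-1.31), PRPF8 (-0.98) and PRPF6 (-0.94). The other 3 members were higher with PABPN, namely PRPF40B (2.10), PRPF39 (1.28) and LSM12 (1.19).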

How the results depend on the processing

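No paired analysis was possible because the tables carry no columns of single libraries, and for the same reason no replicate could be left out. With a cut-off of 1, and likewise with a Wald test against a change of 0.5, the count with PABPN went from 3 enriched members to 0 and from 20 depleted to 10. At the cut-off of 1, 23 calls of single members were lost over the 3 comparisons and 112 values stayed on their side. Centring on the median of all genes (-0.041 with PABPN, 0.14 with PABPC) moved the count depleted from PABPC from 3 to 6 and turned the median of the large class with PABPC to -0.0048. It also turned the signs of 3 values that were not called, SNRPA with PABPN (0.041) and SF3B1 and PRPF4B with PABPC (-0.013 and -0.060), and SF3B4 lost its call with PABPC (0.52, adjusted p = 0.0103 from the recomputed Wald test). With classes split by exonic length in place of family, the medians were -0.62 for small and -0.22 for large with PABPN, 0.43 for large with PABPC and -0.50 for large in the difference. Without SF3B4, SF3B5 and SF3B6 the median of the large class was -0.22 with PABPN and -0.46 in the difference. Means in place of medians gave 0.34 for large with PABPC and -1.75 for small in the difference. The cause of these shifts was not tested beyond the change of members or centre itself. The other alternatives, among them other minimums of baseMean, an adjusted p of at most 0.05 and the shared input taken out, moved no count of members by over 1.5 times and no class median beyond its error. With the shared input taken out, 44 of the 45 members reported singly kept their side of the call and SNRPA1 passed it.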

Other observations

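The minor spliceosome, which removes a rare class of introns, has proteins of its own, and 7 of their genes were among the further spliceosome genes. They were set apart after their values were seen. By the DESeq2 calls, 5 were enriched with PABPC (71.4%, beside 41.2% of protein coding genes). They were SNRNP25 (2.45, SE 0.143), ZCRB1 (1.27, SE 0.101), PDCD7 (1.15, SE 0.106), ZMAT5 (1.00, SE 0.126) and SNRNP48 (0.86, SE 0.122). SNRNP35 was not called (0.25, SE 0.149), and RNPC3, of the U11/U12 snRNP, was depleted at -1.42 (SE 0.111). With PABPN, ZMAT5 was depleted at -0.80 (SE 0.127) and the other 6 were not called. The share depleted was 14.3% with PABPN, near the 16.5% of protein coding genes, and 14.3% with PABPC, beside 27.9%. RNPC3 had 0.47 (SE 0.114) with PABPN, inside the cut-off, and its difference between the RIPs was 1.89 (SE 0.160).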
